A study of Mus musculus with 6 samples.

Results

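Of the 82 genes whose symbols match the deubiquitinase naming pattern, 80 are described here: the families USP, UCH, OTU, Josephin and JAMM, with Cyld and Tnfaip3. Usp18 and the Y-linked Usp9y were left out, as was Bap1, the deubiquitinase deleted in the study. The rule takes members by symbol from 37620 gene rows and uses no expression value, but it was chosen, with its exclusions, when earlier results of these data were known. Of the 80, 76 are protein coding, and 65 had a mean normalized count of at least 10 and were tested. The pattern also takes in Usp6nl, a Rab GTPase-activating protein that is no deubiquitinase, and the non-coding Usp46os1, Usp46os2, Uchl1os and Usp17le-ps.

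RNA came from granulocyte-macrophage progenitors (GMPs), bone marrow cells that give rise to granulocytes and monocytes, sorted from C57BL/6 mice. Of the 6 libraries, 3 are labelled Bap1 knockout and come from Bap1 f/f mice with Mx1-Cre, and 3 are controls from Bap1 f/f mice without Cre. Both carried the floxed allele and both had received polyI:polyC, at 42 days of age per the labels, with cells taken at 65 days; the design text of the series puts the injections earlier. Mx1-Cre is driven by an interferon-responsive promoter that acts in many cell types, and only the knockout-labelled mice carried it, so Cre itself and the loss of Bap1 cannot be told apart as sources of a difference. The labels do not say whether each library came from its own animal, and p-values therefore measure the spread between these libraries.

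Ubiquitin is attached to proteins singly or as chains, and deubiquitinases are the proteases that take it off again. USP, UCH, OTU and Josephin enzymes are cysteine proteases, and JAMM enzymes are zinc metalloproteases. BAP1 is itself a UCH enzyme that removes ubiquitin from histone H2A, and several members (Usp16, Mysm1, Usp3, Usp21) are known for the same reaction. In blood cells, Mysm1 and Usp16 are known for their roles in stem cells, and Cyld and Tnfaip3 (A20) as brakes on NF-kB signalling.

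The sequences shown are the promoters of 2 pairs of close relatives. The Usp46 and Usp12 RNAs moved in opposite directions, and the Usp28 and Usp25 RNAs both fell. Each runs 5′ to 3′ on the gene's strand, from 250 bases before to 50 bases after the RefSeq start (build GRCm38.p6), with GC boxes (GGGCGG) and the CCAAT box (CCAAT), on either strand, in capitals.
Usp46: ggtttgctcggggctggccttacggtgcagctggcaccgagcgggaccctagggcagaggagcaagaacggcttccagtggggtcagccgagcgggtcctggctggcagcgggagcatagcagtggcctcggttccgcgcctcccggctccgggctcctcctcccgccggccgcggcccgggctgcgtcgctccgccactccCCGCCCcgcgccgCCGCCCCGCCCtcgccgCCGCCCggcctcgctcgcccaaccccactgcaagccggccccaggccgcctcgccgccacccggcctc
Usp12: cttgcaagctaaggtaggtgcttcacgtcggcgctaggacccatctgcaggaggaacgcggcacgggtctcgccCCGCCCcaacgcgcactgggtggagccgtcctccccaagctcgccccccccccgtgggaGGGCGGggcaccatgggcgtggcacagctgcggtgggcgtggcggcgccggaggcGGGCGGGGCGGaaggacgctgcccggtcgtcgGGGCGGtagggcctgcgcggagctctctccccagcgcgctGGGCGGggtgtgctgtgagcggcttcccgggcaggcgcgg
Usp28: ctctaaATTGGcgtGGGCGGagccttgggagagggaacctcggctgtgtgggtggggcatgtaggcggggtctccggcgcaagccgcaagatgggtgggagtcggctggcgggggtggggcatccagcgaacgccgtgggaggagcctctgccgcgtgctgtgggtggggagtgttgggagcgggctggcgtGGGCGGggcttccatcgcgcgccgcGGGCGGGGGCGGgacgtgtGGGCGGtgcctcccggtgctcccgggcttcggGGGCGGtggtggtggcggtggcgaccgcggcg
Usp25: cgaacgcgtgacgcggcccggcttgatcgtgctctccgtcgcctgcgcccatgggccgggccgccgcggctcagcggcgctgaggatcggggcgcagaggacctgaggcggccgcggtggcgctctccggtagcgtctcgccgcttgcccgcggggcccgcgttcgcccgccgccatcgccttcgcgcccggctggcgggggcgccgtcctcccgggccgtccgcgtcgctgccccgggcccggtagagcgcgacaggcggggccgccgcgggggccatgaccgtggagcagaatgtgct
The windows lie at chr5:74068362-74068661 (minus strand) for Usp46, chr5:146794907-146795206 (minus) for Usp12, chr9:48985135-48985434 (plus) for Usp28 and chr16:77013819-77014118 (plus) for Usp25. Promoters were found for 64 of the 80 members. A GC box lay in 59.7% of the members' 72 promoters, against 60.9% of the 12127 promoters of genes tested, and a CCAAT box in 34.7% against 38.1%. An E-box (CACGTG) was in 13.9% against 10.1%, a forkhead motif (GTAAACA) in 2.78% against 2.61%, and a PU.1 motif (GAGGAAGT) in 0 of 72 against 3.44%. All were searched on both strands, and matches may overlap, as neighbouring GC boxes do in the Usp46 and Usp12 windows. The Usp25 window held none of these letters.

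The libraries held 19.5 to 24.1 M gene reads in the knockout-labelled group and 24.1 to 25.9 M in control, and every pair of replicates differed beyond counting noise. Bap1, the targeted gene, stood at 2671, 3309 and 2968 normalized counts in the libraries labelled knockout, against 1343, 998.5 and 1076 in control, so the targeted gene goes against its label. The values cover every exon of Bap1, deleted or not, and do not check the deletion. Of 10 GMP and gate genes, 4 rose (Kit, Elane, Ctsg and Ms4a3) and 2 fell. The falls were in Cd34 (4093, 3682 and 4113 in knockout-labelled and 11630, 11160 and 11700 in control libraries, 2.90-fold lower, limma adjusted p = 5.04e-06) and the Fcγ receptor gene Fcgr3 (1.71-fold lower, 0.00198). Not all genes of the sort fell. Kit was 1.39-fold higher (limma adjusted p = 0.0214), and the Fcγ receptor gene Fcgr2b was not called (log2 fold change -0.15, limma adjusted p = 0.346). The summed level of the 10 genes, mostly Mpo and Elane, was 1102000 to 1596000 in knockout-labelled and 888500 to 962600 in control libraries, and Ly6a (Sca1) was at 45.7 to 76.8 and 54.4 to 135.9. Markers of other cells moved with the groups. Of the monocyte and macrophage list, 11 of 11 tested genes fell (summed level 6782 to 17420 against 55180 to 65570), as did 9 of 11 dendritic cell genes (2631 to 6038 against 13400 to 29300) and 8 of 8 B cell genes (1103 to 1432 against 2309 to 2762, with Pax5 and Vpreb3 at 0 reads in knockout-labelled libraries). In the list for mast cells, basophils and eosinophils, 2 of 12 genes rose while 7 fell (49400 to 63050 against 100400 to 106800), and in that for T and NK cells 1 of 7 tested genes rose while 5 fell (36490 to 56040 against 28470 to 30670, with Cd2 at 0 in knockout-labelled libraries). The T and NK sum is mostly Nkg7, the gene that rose (mean 46710 in knockout-labelled and 28950 in control libraries), and does not show the 5 falls. Of 10 erythroid genes 5 rose (7490 to 17300 against 6427 to 10050), of 8 megakaryocyte genes 1 rose and 4 fell (1429 to 3473 against 2476 to 4039), and of 12 mature neutrophil genes 1 rose (114900 to 316900 against 143100 to 194400). The part of such cells in the results on deubiquitinases was not tested, and fewer cells of a type and less RNA per cell cannot be told apart in bulk libraries. Xist and Y-linked genes put a female mouse behind control replicate 1 and knockout replicate 3 and males behind the others.

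Most deubiquitinase RNAs lay close to their control level. Of the 65 tested members, 4 rose and 10 fell in the libraries labelled knockout, by limma at an adjusted p of 0.05 (Benjamini-Hochberg over all genes). These 14 calls are 21.5% of the tested members, against 26.8% of the 14391 genes tested, and the members' share is no higher than that of genes at large. In edgeR and DESeq2, 26.1% and 29.8% of all genes were called, and 12 and 15 members (3 higher and 9 lower, 5 higher and 10 lower). By direction, 6.15% of members rose against 11.8% of all genes, and 15.4% fell against 15.0%. The members' median log2 fold change was -0.08 (all genes 0.01), and 73.8% of them lay within 0.5 of 0 on the log2 scale, against 59.9% of all genes. The normalized counts of the 2 groups did not overlap for 18 of the 65 members (27.7%), against 42.9% of all genes tested. Summed over the 80 members, levels were 71475, 63785 and 63695 in knockout-labelled libraries and 65196, 65718 and 68187 in control.

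**Figure D1:**
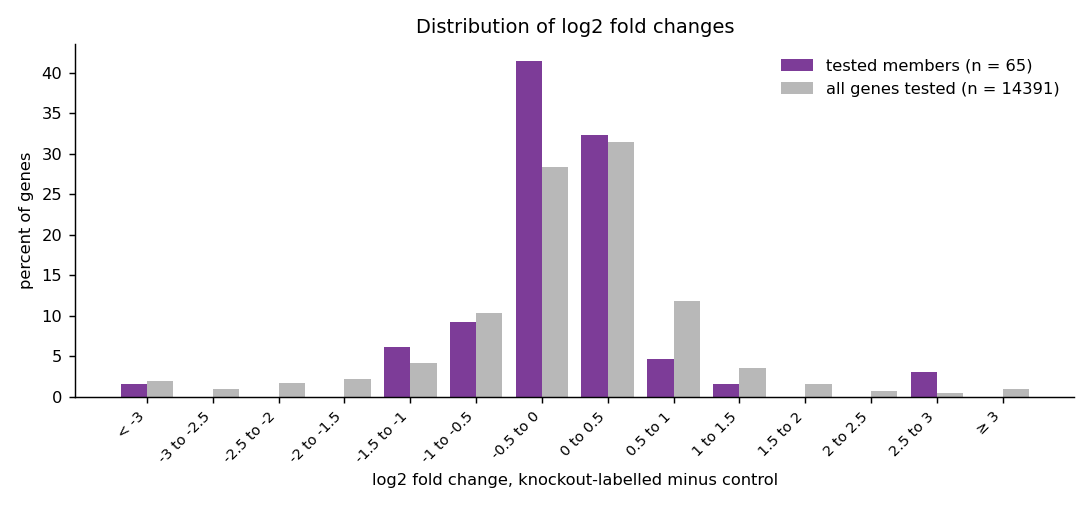
Percent of genes (vertical axis) in each bin of log2 fold change, knockout-labelled minus control (horizontal axis), for the 65 tested members and for all 14391 genes tested. In the bin from -0.5 to 0 are 41.5% of the members and 28.4% of all genes.

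The split of the calls by direction changed with an adjustment for GC content and transcript length, made together. After each library was adjusted, 13 members were called higher and 7 lower, beside 33.0% of the 13794 genes with a value. Over all genes the calls then numbered 2641 higher (19.1%) and 1917 lower (13.9%), against 1695 and 2163 unadjusted. Members called higher in this fit and not in the unadjusted one were Mysm1, Stambp, Uchl5, Usp1, Usp11, Usp14, Usp34, Usp47 and Usp53, and Usp10 and Usp21 were then called lower. In the adjusted fit Otud4 (log2 fold change -0.25), Usp16 (-0.08), Usp25 (-0.37) and Usp45 (-0.47) were smaller and not called, and Usp12, at -1.19 beside -1.34 unadjusted, missed the threshold (limma adjusted p = 0.0516).

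**Figure D2:**
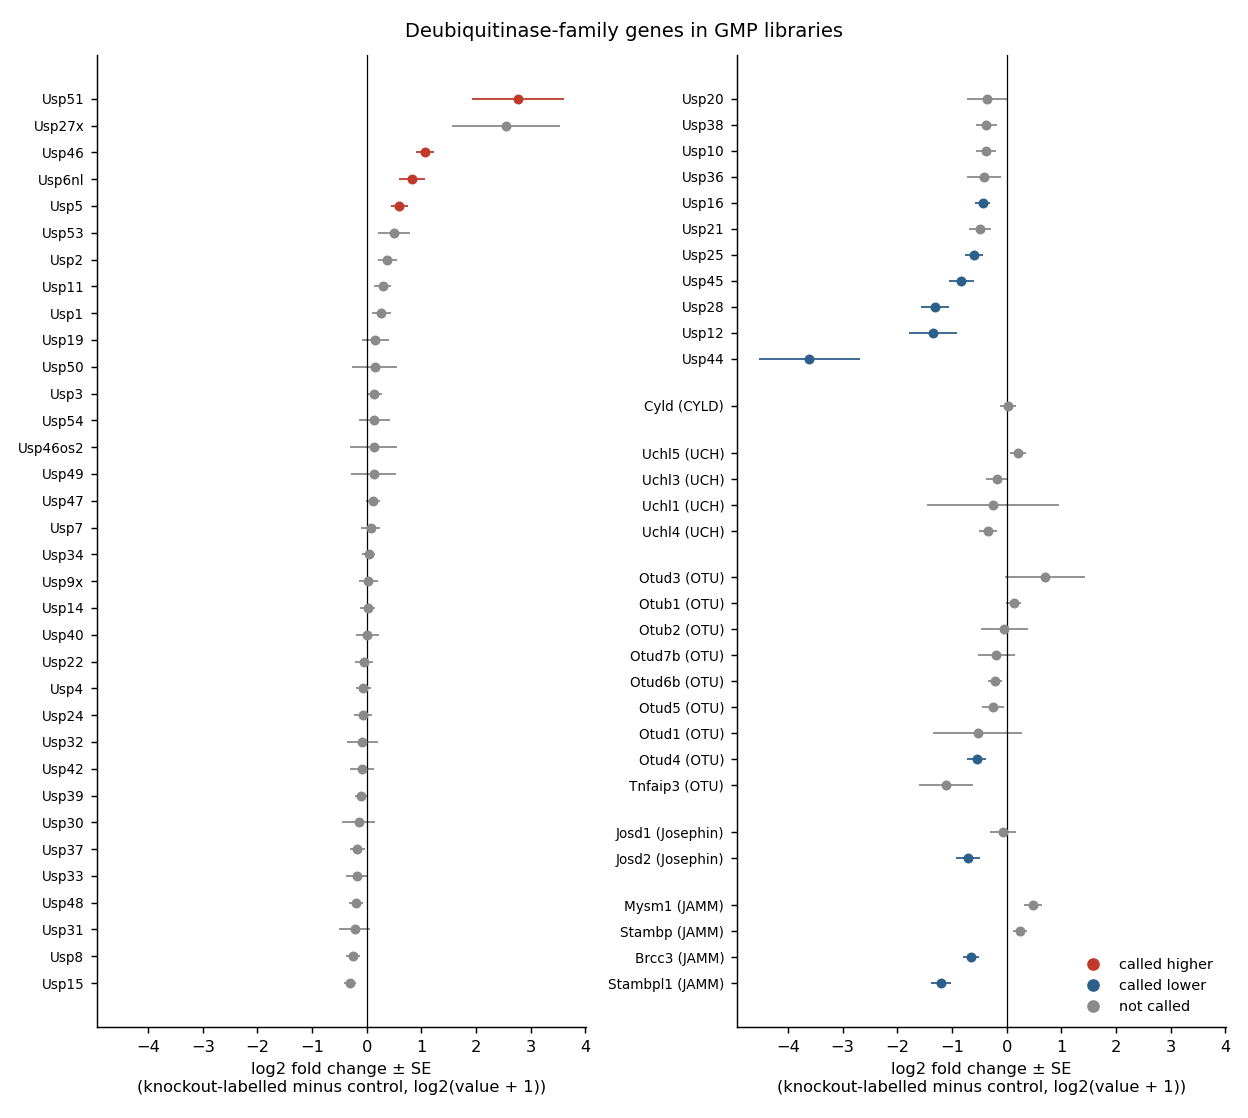
Log2 fold change with its SE (horizontal axis, knockout-labelled minus control, on log2(value + 1)) for each of the 65 tested members, with USP genes in the left panel and the top of the right one and the other families below. The 4 members called higher run from 0.60 (Usp5) to 2.77 (Usp51) and the 10 called lower from -0.44 (Usp16) to -3.61 (Usp44).

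By level per length, the proteasome enzyme Uchl5 led the members in both groups. It had 3920 ± 781 normalized counts per kb of exon in knockout-labelled and 3340 ± 226 in control libraries (SD, n = 3 each, here and below). Uchl4, a close copy of Uchl3 whose reads cannot be fully told from it, followed at 1730 ± 416 and 2140 ± 140, then Otub1, which also restrains ubiquitin-conjugating enzymes, at 1000 ± 141 and 911 ± 80.1. Usp39, a splicing factor with no deubiquitinase activity, was at 833 ± 30.5 and 894 ± 55.1 per kb, and Usp14, another proteasome-bound enzyme, at 847 ± 185 and 822 ± 29.5. Otub1, Usp39 and Usp14 overlap within their SDs in control, and their order is not resolved. In the other families the highest levels per kb were those of Brcc3 (JAMM, 242 ± 37.8 and 378 ± 26.5), Josd2 (Josephin, 135 ± 40.8 and 217 ± 37.0) and Cyld (51.7 ± 4.75 and 50.9 ± 3.71). At the other end, 11 members had 0 reads in all 6 libraries, which allows up to 3 reads in each. They were 6 members of the USP17-like cluster, whose genes are close copies of each other, and Usp13, Usp26, Usp29, Otud7a and Uchl1os. Otud6a, Usp35, Usp43 and Usp46os1 had a few reads and were not tested.

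**Figure D3:**
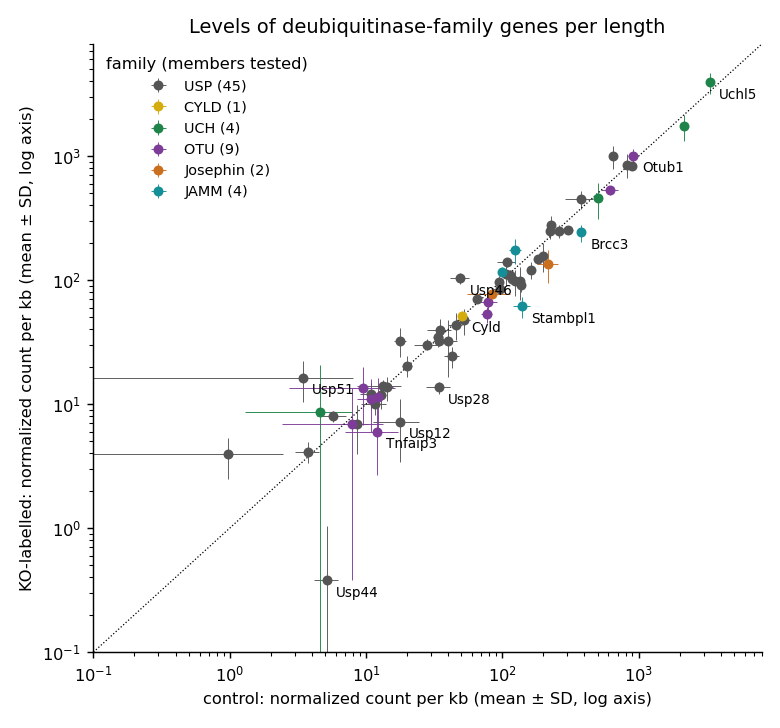
Normalized count per kb of exon in control (horizontal, log axis) and knockout-labelled libraries (vertical, log axis) for the 65 tested members, coloured by family; points are means, bars SDs (n = 3), cut off where they reach below the axis, and the dotted line marks equal levels. Uchl5 is highest in both groups, Usp46 lies above the line, and Stambpl1, Usp28 and Usp44 lie below it.

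Usp46 rose, and it was called in every fit run. USP46 and its close relative USP12 are activated by the WD-repeat proteins WDR48 and WDR20. In the libraries labelled knockout, Usp46 had 898.2, 749.6 and 774.2 normalized counts, against 387.4, 323.9 and 445.7 in control. Every knockout-labelled library lay above every control library, and the difference was 2.10-fold (log2 fold change 1.07, SE 0.17, limma adjusted p = 0.000949). Usp12 moved the other way, with 24.5, 21.9 and 53.7 against 68.4, 117.5 and 62.4. Its groups did not overlap, although knockout replicate 3 came close to control replicate 3 (log2 fold change -1.34, SE 0.44, limma adjusted p = 0.0415). The Usp12 call was lost without knockout replicate 1 (0.0955) or 2 (0.122), without control replicate 1 (0.0725), 2 (0.175) or 3 (0.0643), and in edgeR (0.057). Per kb, Usp46 exceeded Usp12 by 21.7, 20.3 and 8.53 times in the knockout-labelled libraries and by 3.35, 1.63 and 4.23 times in control, a ratio within each library. Since both genes separate the groups in opposite directions, their ratio must too. The antisense gene Usp46os2, which overlaps 3.7% of the Usp46 exon length, was at 29.24 ± 3.012 and 26.91 ± 5.061 (limma adjusted p = 0.857). Of the activators, Wdr20 was at 586.7, 663.2 and 512.7 against 737.5, 624.9 and 836.1, with overlap (log2 fold change -0.32, limma adjusted p = 0.187). Wdr48 was at 1800, 1895 and 1907 against 1390, 1432 and 1540 (1.28-fold, limma adjusted p = 0.0397), but of the 6 fits without 1 library it was called only in that without knockout replicate 1, with limma adjusted p up to 0.143 in the others. Dmwd, a relative of Wdr20, rose to 32, 42.7 and 61.7, against 20.4, 4.78 and 17.8 in control (limma adjusted p = 0.0458), and its call held in 1 of those 6 fits and not after GC and length adjustment (0.0814).

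Usp28 and Usp25, a pair of close relatives, fell together. In human cells USP28 is known to stabilise MYC, and USP25 to act in innate immune signalling. Usp28 had 89.6, 76 and 73.1 normalized counts in knockout-labelled libraries, against 182.1, 172.9 and 244.2 in control, with no overlap (log2 fold change -1.31, SE 0.26, limma adjusted p = 0.00355). Usp25 had 534.4, 460.2 and 423.7 against 674.4, 758.7 and 717.5 (log2 fold change -0.60, SE 0.16, limma adjusted p = 0.0145). All 3 knockout-labelled libraries were below all control libraries for both genes. Usp25 did not pass when control replicate 2 (0.07) or 3 (0.0574) was left out, nor after GC and length adjustment (0.0624), while Usp28 was called in every fit run. Usp28 stood at 0.150, 0.147 and 0.154 of Usp25 per kb in knockout-labelled libraries and at 0.241, 0.203 and 0.304 in control (exact permutation p = 0.1, 2-sided, the smallest that 3 against 3 allows).

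Usp16 and Usp45, another related pair, both fell as well. Usp16, which removes ubiquitin from H2A, had 1348, 1082 and 991.2 normalized counts against 1539, 1441 and 1616 (log2 fold change -0.44, SE 0.14, limma adjusted p = 0.0424). Its groups were separated by a narrow gap, between knockout replicate 1 and control replicate 2. That call was lost without knockout replicate 2 (0.101) or 3 (0.104), without control replicate 1 (0.111), 2 (0.0866) or 3 (0.151), and after GC and length adjustment, where the log2 fold change was -0.08 (0.592). On the other strand Cct8, with 157186 reads against 8224 of Usp16, overlaps 2.0% of the Usp16 exon length, and reads there cannot be told apart unless strand was counted. Usp45, known for the repair nuclease ERCC1-XPF, had 181.3, 146.8 and 123.3 against 300.3, 232.2 and 265.6 (log2 fold change -0.83, SE 0.23, limma adjusted p = 0.0205), again with no overlap. It was not called without knockout replicate 3 (0.0519), control replicate 1 (0.0857) or control replicate 3 (0.0691), nor after GC and length adjustment (0.111).

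**Figure D4:**
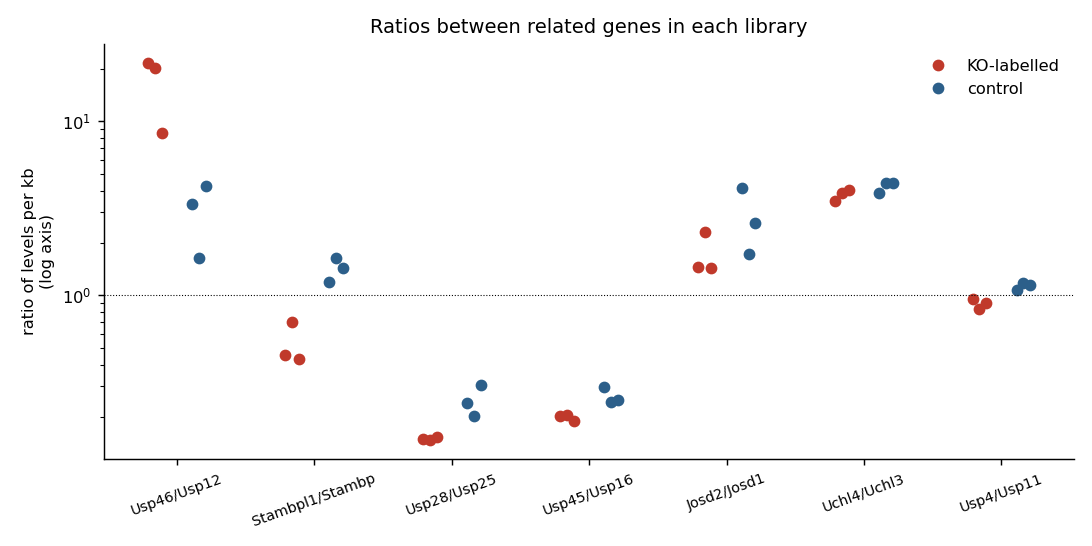
Ratio of the levels per kb of 2 related genes (vertical, log axis) in each of the 3 knockout-labelled and 3 control libraries, for 7 pairs. The Usp46/Usp12 ratios are 8.53 to 21.7 in knockout-labelled libraries and 1.63 to 4.23 in control, and the Uchl4/Uchl3 ratios overlap.

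Of the 22 pairs of relatives compared, 17 had both genes tested. Both genes were called in the same direction in 2 pairs and in opposite directions in 1, 1 gene alone was called in 5, and neither in 9. The pairs were set down with the members' values known, so these counts describe them only. Per kb ratios could be tested in 14 pairs, and 7 reached the smallest p of 0.1, which cannot pass a threshold of 0.05. For Usp46/Usp12 and Stambpl1/Stambp that value only restates the separation of the single genes.

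Of the 4 JAMM enzymes, Stambpl1 and Brcc3 fell, while Stambp and the H2A-directed Mysm1 did not pass. Over all genes 15.0% fell, and with 4 enzymes nothing is read from the difference. Stambpl1, an endosomal enzyme that cuts K63-linked chains, had 322.1, 414.4 and 285.5 normalized counts in knockout-labelled libraries, against 660.2, 874.3 and 804.9 in control. The groups were far apart, and the difference was 2.30-fold (log2 fold change -1.20, SE 0.19, limma adjusted p = 0.000886). Its relative Stambp had 1327, 1107 and 1237 against 1032, 1000 and 1051 (log2 fold change 0.25, SE 0.13, limma adjusted p = 0.182). Stambpl1 was thus at 0.455, 0.702 and 0.433 of Stambp per kb in the knockout-labelled libraries and at 1.20, 1.64 and 1.44 in control. Brcc3, the X-linked enzyme of the BRCA1-A and BRISC complexes, had 2242, 1798 and 1676 against 2780, 3197 and 2967 (log2 fold change -0.65, SE 0.14, limma adjusted p = 0.00444). Knockout replicate 1 came nearest to control, without overlap, and the call held without any 1 library; adjusted for GC and length, the log2 fold change was -0.29 (limma adjusted p = 0.0417). Mysm1 had 1763, 1159 and 1772 against 1235, 1045 and 1038, where knockout replicate 2 lay within the control range (log2 fold change 0.48, SE 0.17, limma adjusted p = 0.0623). Mysm1 passed in DESeq2 (0.0254), after GC and length adjustment (0.83, limma adjusted p = 0.00248), and without knockout replicate 2 (0.68, limma adjusted p = 0.00833).

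**Figure D5:**
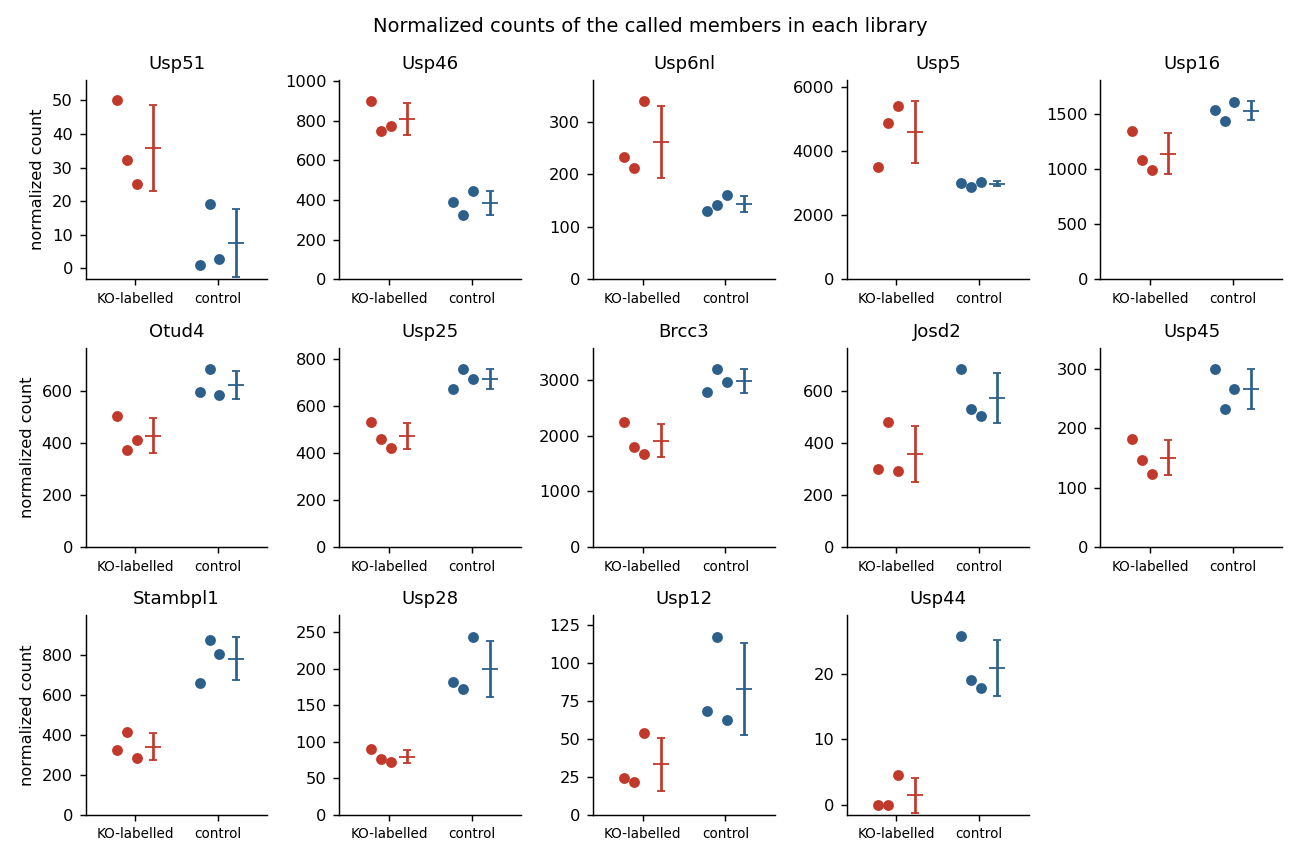
Normalized count (vertical axes, each with its own scale) of the 14 called members in the 3 knockout-labelled and 3 control libraries; bars are means ± SD. In each panel the groups do not overlap, with narrow gaps for Josd2 and Usp16.

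Of the 12 members known to act on ubiquitinated histone H2A or H2B, 2 rose and 3 fell (median log2 fold change 0.10, all genes 0.01), where 11.8% of all genes rose and 15.0% fell; with 12 genes, nothing is read from the difference. Usp46 and Usp51 were higher, and Usp12, Usp16 and Usp44 were lower. Usp51, X-linked and known in human cells for H2A at sites of DNA damage, had 50.1, 32.3 and 25.1 normalized counts, against 0.8885, 19.11 and 2.674 in control. Control replicate 2 lay close to the knockout-labelled libraries (log2 fold change 2.77, SE 0.84, limma adjusted p = 0.0300). Usp51 reaches the mean of 10 needed for testing only through the knockout-labelled libraries (mean 35.8, against 7.56 in control). It was not called without knockout replicate 1 (0.0954), 2 (0.0806) or 3 (0.0509), without control replicate 1 (0.084) or 3 (0.0805), or in edgeR (0.0776). Usp44, a regulator of the mitotic checkpoint that also acts on H2B, had 0, 0 and 4.57 against 25.8, 19.1 and 17.8 (log2 fold change -3.61, SE 0.92, limma adjusted p = 0.0138). With so few reads the size depends on the pseudocount, -4.29 with 0.5 and -2.26 with 4. Usp44 reaches the mean of 10 needed for testing only through the control libraries (mean 20.9, against 1.52 in knockout-labelled). Usp27x, a relative of Usp51 and also X-linked, was at 17.1, 10.4 and 22.8 against 11.6, 0.956 and 0, with overlap (limma adjusted p = 0.0790, or 0.0234 without control replicate 1). Like Usp51, Usp27x reaches that mean only through the knockout-labelled libraries (mean 16.8, against 4.17 in control).

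The other histone-directed members did not pass. Usp22, the enzyme of the SAGA coactivator, was at 539.5 ± 54.9 in knockout-labelled and 558.4 ± 39.4 in control libraries (limma adjusted p = 0.836), and Usp3 at 1703 ± 243 and 1539 ± 97.6 (0.485). Usp7, which acts on MDM2 and p53 as well as on chromatin proteins, was at 872.9 ± 173 and 820.1 ± 32.3 (0.789), and Usp49 at 35.5 ± 6.81 and 32.4 ± 6.58 (0.842). On the same strand Gm20517 overlaps 51.2% of the Usp49 exon length, so the Usp49 count is uncertain. Usp21 was at 351, 625.7 and 431.6 against 665.5, 629.7 and 623.9, with knockout replicate 2 at the control level (limma adjusted p = 0.1, or 0.0169 without that library).

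Of 13 members known from NF-kB and inflammatory signalling, Usp25 fell and the other 12 did not pass (median log2 fold change -0.22, all genes 0.01). Over all genes 11.8% rose and 15.0% fell, and with 13 genes nothing is read from the difference. Cyld, which cuts K63-linked and linear chains, was at 707.2, 653.8 and 588.1 normalized counts in knockout-labelled and 673.5, 586.7 and 659.6 in control libraries, with full overlap (limma adjusted p = 0.937). Tnfaip3 was at 17.1, 48.9 and 63.9 against 79.1, 128 and 56.2, with wide scatter in both groups (log2 fold change -1.11, SE 0.50, limma adjusted p = 0.124). Usp15 was at 2590, 2406 and 2344 against 2833, 3196 and 2997, with no overlap (log2 fold change -0.30, SE 0.11, limma adjusted p = 0.0713, or 0.0428 without knockout replicate 1). Otud1, at 19.5 ± 18.4 against 22.3 ± 15.5, and Otud7b, at 103.5 ± 44.97 against 111.7 ± 12.2, had spreads as large as any difference (limma adjusted p = 0.675 and 0.709). Otud5 was at 343.7 ± 53.7 and 409.8 ± 66.3, Usp31 at 102.5 ± 17.7 and 119.8 ± 24.6, Usp4 at 2143 ± 269 and 2227 ± 31.0, Otub1 at 2555 ± 358 and 2318 ± 204, and Otub2 at 40.7 ± 18.5 and 40.0 ± 8.39. Usp2 was at 671.6 ± 59.1 and 519.5 ± 80.2 (limma adjusted p = 0.115).

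Among 20 NF-kB target genes, 17 were tested, 3 rose and 1 fell. Nfkb1, the p105 and p50 subunit, was 1.51-fold higher (3899 ± 211 against 2576 ± 173, limma adjusted p = 0.00265), Rel 1.98-fold (0.026) and the inhibitor Nfkbia 1.40-fold (0.0451). Cd83, an activation marker of dendritic and B cells, was at 4.27, 19.8 and 0 in knockout-labelled and 62.2, 87.9 and 70.4 in control libraries (0.00758). Of 19 tested genes of the linear and K63 chain system 2 rose and 2 fell. The ligase gene Traf6 was 1.73-fold higher (limma adjusted p = 0.0104), and Ube2v1 was at 51.2, 15.6 and 19.4 against 3.55, 10.5 and 2.67 (0.0442), while the E2 gene Ube2n was 1.40-fold lower (0.0168) and the ligase gene Itch 1.42-fold lower (0.0359). Without 1 library, the calls of Nfkb1, Cd83 and Traf6 held in 6 of 6 fits and that of Ube2n in 4, while those of Rel and Nfkbia held in 2 and those of Ube2v1 and Itch in 1. Cd83 reaches the mean of 10 needed for testing only through the control libraries (mean 8.02 in knockout-labelled), so its count says nothing of its stability. Ube2v1 reaches it only through the knockout-labelled libraries (mean 5.58 in control). After GC and length adjustment Ube2n was at a log2 fold change of -0.16 (limma adjusted p = 0.241) and Itch at -0.19 (0.289), and neither was called.

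Of 11 members whose loss is known to disturb mouse blood formation, Usp16 fell and the other 10 did not pass (median log2 fold change 0.02, all genes 0.01). Over all genes 11.8% rose and 15.0% fell, and with 11 genes nothing is read from the difference. Usp10, which acts on p53, was at 1085, 1542 and 1878 normalized counts in knockout-labelled libraries against 1874, 1900 and 1964 in control, with knockout replicates 1 and 2 below every control and replicate 3 within their range (limma adjusted p = 0.131, or 0.0253 without knockout replicate 3). Usp1, which with WDR48 acts on the Fanconi protein FANCD2, was at 1966, 1618 and 1432 against 1086, 1395 and 1727, with overlap (limma adjusted p = 0.299). A pseudogene shares 60.9% of its longest transcript at an identity of up to 97.9%, so its count is uncertain. Usp9x was at 523 ± 87.4 and 509.8 ± 42.7 (limma adjusted p = 0.926).

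Of the 5 tested members that recycle ubiquitin or sit on the proteasome, Usp5 rose, where 11.8% of all genes rose and 15.0% fell. USP5 takes apart free ubiquitin chains. In normalized counts its RNA stood at 3504, 4858 and 5382 in the knockout-labelled libraries, against 3012, 2887 and 3034 in control, whose libraries were nearly level (log2 fold change 0.60, SE 0.15, limma adjusted p = 0.0131). Knockout replicate 1 was the nearest to control, and the call was lost without control replicate 2 (0.0557). Uchl5, the closest relative of BAP1 among the UCH enzymes, had 13980, 10860 and 9542 against 9257, 9539 and 10520, with overlap (log2 fold change 0.21, limma adjusted p = 0.291). Adjusted for GC and length, Uchl5 had a log2 fold change of 0.59 (limma adjusted p = 0.000337). Usp14 was at 7068 ± 1547 and 6859 ± 246 (0.927). Reads of Usp14 can be shared with Thoc1 on the other strand, which covers 26.0% of its exon length. The ubiquitin-activating enzyme gene Uba6 was at 201.6, 188.4 and 147.3 in knockout-labelled libraries against 311, 352.6 and 327.1 in control, with no overlap (1.85-fold lower, limma adjusted p = 0.00832), a call that the GC and length adjustment ended (0.0514).

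The remaining called members were Otud4, Josd2 and Usp6nl. Otud4, an OTU enzyme that also acts as a scaffold in DNA repair, had 501.4, 370.7 and 412.2 normalized counts against 595.3, 684.1 and 585.6 (log2 fold change -0.55, SE 0.17, limma adjusted p = 0.0341). No library crossed between the groups. It was called only without knockout replicate 1 (0.0146) among the fits without 1 library, was not called without knockout replicate 2 (0.0969) or 3 (0.0638) or control replicate 1 (0.0751), 2 (0.139) or 3 (0.0779), and stood at 0.207 after GC and length adjustment. Josd2, a Josephin enzyme, had 297.6, 480 and 290 against 683.3, 531.3 and 501.8, with knockout replicate 2 just under control replicate 3 (log2 fold change -0.71, SE 0.22, limma adjusted p = 0.0341). It was lost without knockout replicate 1 (0.0882) or 3 (0.0942) and without control replicate 1 (0.133), 2 (0.076) or 3 (0.0569). Its relative Josd1 was at 267.8 ± 4.35 and 289.5 ± 99.1 (0.879). Usp6nl had 233.6, 211.4 and 339.1 against 130.6, 140.5 and 159.6, highest in knockout replicate 3 (log2 fold change 0.83, SE 0.24, limma adjusted p = 0.0247), and was lost without that library (0.079) and without control replicate 1 (0.0774) or 2 (0.0742).

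By other roles, the 10 tested members known to act on p53 or MDM2 held 1 that rose (Usp5) and 1 that fell (Usp28; list median -0.08), the 11 of DNA repair 1 and 3 (Usp51 up, Usp28, Usp44 and Brcc3 down; 0.12) and the 9 of endosome and membrane traffic 1 and 1 (Usp6nl up, Stambpl1 down; -0.15). Over all genes 11.8% rose and 15.0% fell, and with lists this small nothing is read from the differences. In the DNA repair list, Usp51 and Usp44 reach the mean needed for testing only through the group where they are high. Among members that did not pass, Otud3 and Usp53 followed Usp27x in size on the higher side. Otud3, with a log2 fold change of 0.70, was at 12.8, 19.8 and 34.3 against 3.55, 18.2 and 25.8 (limma adjusted p = 0.511), and Usp53 at 105.6, 106.2 and 89.1 against 91.5, 65.0 and 58.8 (0.245).

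Related genes were read against the same background, 11.8% of all genes higher and 15.0% lower, and no list is set apart from it here. Of 21 tested genes related to deubiquitinases but outside the naming pattern, not all of them active deubiquitinases, 1 rose and 3 fell. Otulinl, an inactive relative of the linear-chain enzyme OTULIN, had 992.1, 970.4 and 735.4 normalized counts against 2316, 2211 and 2161 in control (log2 fold change -1.32, SE 0.14, limma adjusted p = 7.83e-05). Zup1, which cuts long K63-linked chains, was at 359.4 ± 36.8 against 747.7 ± 41.5 (limma adjusted p = 0.000627), the JAMM gene Mpnd 1.73-fold lower (0.0411, called in 2 of the 6 fits without 1 library), and the OTU gene Zranb1 1.53-fold higher (0.0103, called in 5 of them). Of 30 partners of member enzymes 3 rose, Wdr48, Dmwd and Atxn7l1, the last a relative of a SAGA subunit gene (1.36-fold, 0.0476, called in 2). Of 9 SUMO and NEDD8 proteases Desi1 was 2.04-fold higher (0.000282) and Senp8 1.61-fold lower (0.0342, called in 2). Of 16 tested genes for enzymes that attach ubiquitin to H2A or H2B and their cofactors 1 rose and 3 fell: the H2A ligase gene Rnf2 was 1.56-fold lower (0.00579), the H2B ligase gene Rnf20 1.46-fold lower (0.0117, called in 4), its E2 gene Ube2a 1.35-fold lower (0.0328, called in 2), and Pcgf5 1.31-fold higher (0.0492, called in 1). After GC and length adjustment Senp8 was at a log2 fold change of -0.33 (limma adjusted p = 0.237) and Ube2a at -0.11 (0.453), neither called, and Rnf2 was at -0.29 (0.0493, or 0.0857 with the replicate block as well).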

How the data were processed

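The deposited values are a signal: the authors' gene counts scaled by a size factor for every library. All values above 0 (100%) were whole multiples of what 1 read is worth (0.8885 to 1.1419), to within 0.01 of a read, so whole reads were recovered. The 5 rows naming no gene (74.8 to 77.1% of listed reads) entered no total or test. HTSeq, DESeq2, STAR, Picard and BWA 0.7.5a appear in the submitters' processing notes, with the builds NCBIM37 and mm9, and no roles are given. Per the labels' protocols, libraries were PCR-amplified (SMARTer, Ion Torrent) without molecular identifiers, so floors cover counting error only. No source used here says if strand was counted.

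Log2(deposited value + 1) was tested with limma 3.58.1 in R 4.3.3 (trend, group as only term, both directions) across the 14391 genes whose mean reached 10. For low genes such fold changes depend on the pseudocount. They can be larger or smaller in size than those of edgeR (Usp51 2.77 beside 2.24, Usp44 -3.61 beside -3.72). Alternatives were edgeR 4.0.16 and DESeq2 1.42.0 on recovered reads, TMM, other pseudocounts and filters, a spline adjustment of each library for GC and length, a replicate block, and left-out libraries. In simulated counts of 14205 genes, 50 genes were changed at each fold. Calls were made for 26% (1.5-fold), 64% (2-fold), 86% (4-fold) and 94% (8-fold) of the changed genes, with 10 false calls. The share of genes changed there was far below the 26.8% called in the data, so these rates need not hold for the data. GENCODE M21, on another build than the files, gave symbols (32897 of 37620 IDs), exon lengths and GC. The text names every called member, the highest per kb in each family, the 3 highest and 3 lowest that did not pass, the tested members of the histone, NF-kB and blood lists, and up to 4 called genes per related list. Members, lists and rule were chosen with earlier results of these data known. One related gene is not reported here.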

Additional observations from a re-analysis of the deposited data

How the results depend on the processing

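Stambpl1, Usp28 and Usp46 were called in all 17 alternatives. Usp44 was called in the 12 that tested it, but it passes the filter on low values only through the control libraries and was not tested when 1 of them was left out, so this says nothing of its stability. Of the 14 called members 0 changed sign. Without 1 library, members called higher ranged from 2 to 4 and lower from 3 to 11, and all genes from 1058 to 1796 higher and 1413 to 2354 lower. Without both libraries of female mice 1 member was higher and 4 were lower (all genes 1106 higher and 1491 lower). The GC and length adjustment gave 13 higher and 7 lower members, a median of 0.06 (all genes 0.09) and 2641 higher genes; with the replicate block as well it gave 11 and 6 members and a median of 0.06. The replicate block alone gave 4 and 7 members. Same-numbered libraries did not deviate together (r = -0.104, 0.042 and -0.058). This shows no pairing by number but, with so few libraries, cannot exclude one.

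Signs turned in some fit for 11 named members, all uncalled. After GC and length adjustment, with or without the block, these were Otub2 (0.05), Usp22 (0.08), Usp39 (0.08) and Usp4 (0.06). Otub2 turned also in edgeR (0.02) and DESeq2 (0.03), and Otud3 (-0.42) and Usp22 (0.02) without the female libraries. Without 1 library, log2 fold changes ranged from -0.04 to 0.09 for Cyld, -0.38 to 0.17 for Otub2, -1.28 to 0.36 for Otud1, -0.07 to 1.21 for Otud3, -0.51 to 0.12 for Otud7b, -0.15 to 0.04 for Usp4, -0.02 to 0.29 for Usp49, -0.04 to 0.24 for Usp7 and -0.1 to 0.12 for Usp9x. The cause was not tested.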
